A study of Homo sapiens with 60 samples.

Results

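The genes of oxidative phosphorylation were followed through the RNA of A549, a long-established cell line from a human lung adenocarcinoma. Members were the protein-coding genes of the deposited table whose symbols begin with NDUFA, NDUFB, NDUFC, NDUFS, NDUFV, UQCR, COX4 to COX8 or ATP5, with SDHA to SDHD, CYC1 and the genes of mitochondrial DNA whose symbols begin with MT-ND, MT-CO, MT-ATP or MT-CYB. The rule used names only, no measured value. It gave 104 of 60675 genes, of which 91 lie in the nucleus and 13 in mitochondrial DNA. By symbol, 47 belong to complex I, 4 to complex II, 11 to complex III, 20 to complex IV and 22 to complex V. A further 180 genes with the same prefixes were not typed as protein-coding and were left out.

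The 60 libraries form 20 groups of 3, all after 24 h. The control group (Vehicle) received dimethyl sulfoxide alone, at 0.1% by the sample labels and 2% by the design text. One group received 10 µM Wortmannin, an inhibitor of phosphoinositide 3-kinases and the positive control of the series. The other 18 groups were given aqueous extracts, each of a single herbal drug, at a dose of 500, 100 or 20 µg/mL. The 6 drugs were Liriopis seu Ophiopogonis Tuber, Schisandrae Fructus, Longan Arillus, Zizyphi Semen, Polygalae Radix and Aucklandiae Radix. The design text adds that lower doses were taken where an extract was toxic and that libraries were dropped where RNA was low, while every label states the 3 doses above. Nothing in the labels says that replicates came from separate cultures, so each p-value measures only the spread between these samples. Library sets were read from the first part of the library names, whose meaning the labels do not state. By that part Vehicle (A1) and Wortmannin (1) each formed a library set of their own. The extracts formed 3 sets of a pair of drugs each (Liriopis with Schisandrae, Longan with Zizyphi, Polygalae with Aucklandiae). For any comparison with Vehicle, the library set and the treatment cannot be told apart.

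Oxidative phosphorylation makes most of the ATP of a resting cell. Complex I takes electrons from NADH and complex II from succinate, ubiquinone carries them to complex III, cytochrome c carries them on to complex IV, and oxygen receives them there. Complexes I, III and IV pump protons across the inner mitochondrial membrane, and complex V, the ATP synthase, lets them flow back. Complex II is wholly nuclear encoded, whereas each of the others joins nuclear subunits to a few made inside the organelle from mitochondrial DNA.

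The factors NRF1, the ETS factor GABP and YY1 are textbook regulators of nuclear respiratory genes, and the RefSeq promoters (GRCh38.p14) allowed a look at their core letters. Of the 91 nuclear members, 71 had an entry, which covers 250 bases before to 50 bases after the start of the gene. The NRF1 core GCATGCGC (GCGCATGC on the other strand) was in 18.3% of these windows and in 3.1% of all 35116 promoters of the same length. The ETS core CCGGAAG was in 28.2% against 10.3%. The YY1 core AAGATGG was in 22.5% against 5.8%. Both strands were searched for each core. The 35116 promoters were not matched to the members in gene type or base composition, and these shares were not tested. Stretches upstream of the start are printed for 3 genes that fell with wortmannin below (SDHB, SDHD and NDUFS6) and for 3 that did not pass the test there (COX5B, COX6A1 and NDUFB4). Capitals mark the NRF1 core and, at the end of the COX5B stretch, the ETS core. The run GCGCATGCGC holds the NRF1 core in both orientations, overlapping.
SDHB, chr1:17054172-17054242, minus strand: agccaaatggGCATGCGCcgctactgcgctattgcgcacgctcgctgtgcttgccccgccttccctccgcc
SDHD, chr11:112086723-112086772, plus strand: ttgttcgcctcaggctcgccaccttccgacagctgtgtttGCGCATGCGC
NDUFS6, chr5:1801327-1801397, plus strand: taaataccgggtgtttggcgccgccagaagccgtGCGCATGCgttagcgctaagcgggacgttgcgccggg
COX5B, chr2:97645922-97646032, plus strand: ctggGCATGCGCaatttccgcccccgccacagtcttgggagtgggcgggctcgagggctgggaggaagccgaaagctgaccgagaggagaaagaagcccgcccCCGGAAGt
COX6A1, chr12:120437883-120437953, plus strand: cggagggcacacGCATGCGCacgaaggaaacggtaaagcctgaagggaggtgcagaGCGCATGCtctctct
NDUFB4, chr3:120596146-120596206, plus strand: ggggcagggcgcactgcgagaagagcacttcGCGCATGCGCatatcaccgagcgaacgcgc

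Mitochondrial members are read from long shared transcripts, and some overlap. MT-ATP8 and MT-ATP6, both subunits of the membrane part of ATP synthase, share 46 bases, which is 22.2% of MT-ATP8, so their counts are not independent. The overlap is printed from the GENCODE 29 transcripts to show it, with the start codon of MT-ATP6 and the stop codon of MT-ATP8 in capitals.
MT-ATP8 and MT-ATP6, chrM:8527-8572, plus strand: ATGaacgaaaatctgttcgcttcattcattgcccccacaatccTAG
MT-ND4L and MT-ND4, both complex I subunits, share 7 bases in the same way.

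Libraries held 17.7 to 30.6 M counts. Mitochondrial messenger RNA took 6.68 to 10.4% of a library and the nuclear members 0.678 to 0.951%. The epithelial keratins KRT8 (2864 to 4160 CPM, the usual depth-scaled count) and KRT18 (2181 to 3207 CPM) were high in every library, EPCAM reached 3.65 to 6.36 CPM, and the lung lineage genes NKX2-1 (median 0 CPM) and SFTPB (median 0.0762 CPM) were at or near 0. Of the markers of other cells, the fibroblast genes COL1A2 and DCN and the leukocyte gene PTPRC had a median of 0 CPM, while COL1A1 was present at 18.4 to 34.4 CPM. The fibroblast gene COL3A1 (3.47 to 7.025 CPM) and CD68 of the blood list (6.89 to 23.9 CPM) were also present in every library. The rest of these lists, PDGFRB, HBA1, HBB and CD3E, had medians of 0 to 0.169 CPM. The 4 endothelial markers summed to 0.0451 to 0.394 CPM.

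A set of 4 libraries stood apart from the others, by a measure chosen after seeing the data. Each library's deviation was the median, over a list of genes, of its log2 level minus that gene's mean over all libraries. Over 511 genes that are not members and have less than 1500 bases of exon, the deviation passed 0.1 in replicate 1 of Polygalae at 20 µg/mL (0.294), replicate 3 of Schisandrae at 100 µg/mL (0.167), and replicate 1 of Liriopis at 500 (0.116) and 100 µg/mL (0.107). The nuclear members of these libraries deviated by 0.347, 0.206, 0.158 and 0.156, whereas the other 56 libraries lay between -0.213 and 0.077. Many nuclear members are short genes, and the part of this shift in their values was not tested. Results that rest on these libraries are given with and without them.

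**Figure D1:**
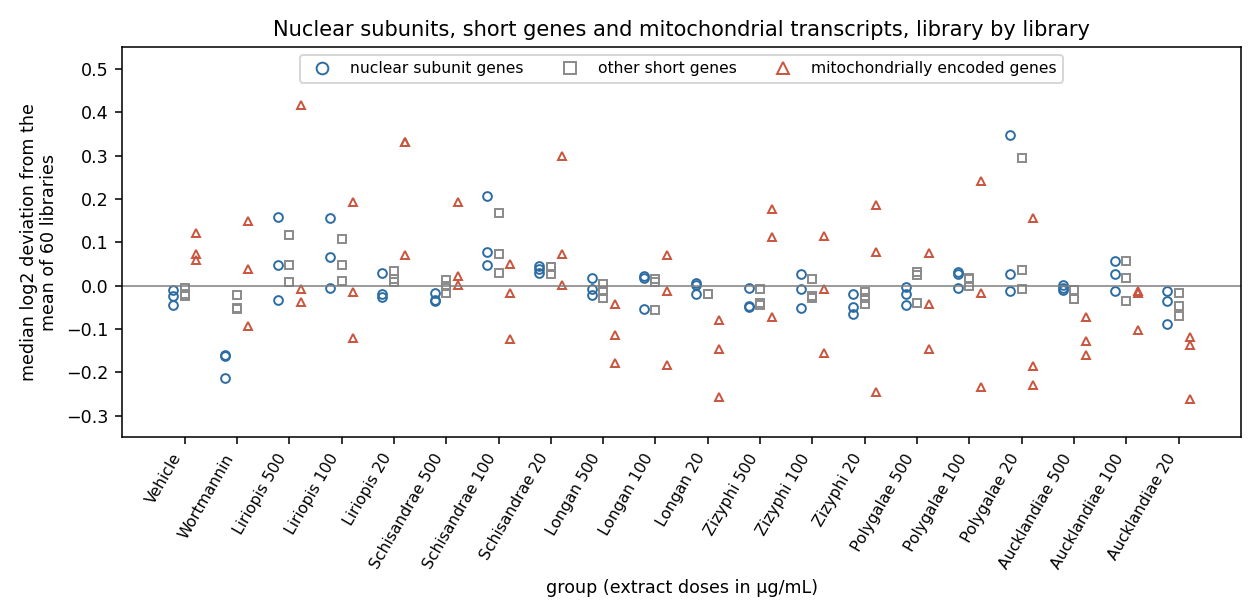
Deviation of each of the 60 libraries (vertical axis, median log2 level minus the mean over libraries) for nuclear members (circles), other short genes (squares) and mitochondrially encoded members (triangles), arranged by group along the horizontal axis. In the Polygalae 20 µg/mL library at 0.294 for short genes, the nuclear members also sit highest, at 0.347, while the mitochondrial values spread widely within most groups.

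Levels in Vehicle spanned several orders of magnitude. They are given as CPM per kilobase of the annotated transcript length taken for each gene. The 13 mitochondrial genes had a median of 5487 on this scale. The lowest was MT-ND6, the complex I subunit on the light strand, at 1273 ± 69.8 (SD, n = 3). The highest was MT-CO3, a core subunit of complex IV, at 15110 ± 347. The nuclear members had a median of 54.7 on the same scale. ATP5F1B, the catalytic beta subunit of ATP synthase, stood highest among them at 516 ± 7.96, and COX6B1, an outer subunit of complex IV, reached 439. Medians of nuclear members by complex were 42.4 for I, 39.5 for II, 61.0 for III, 78.9 for IV and 62.2 for V. The lengths taken for some nuclear genes were long, such as 13566 bases for SDHC and 11819 for NDUFS1. A shorter transcript would give such genes a higher level, so these levels and medians depend on the lengths taken.

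Most members that could not be tested were tissue-specific subunits, though COX6B2, the testis version of subunit 6b, passed the filter. Cytochrome c oxidase has lung, heart and muscle, and testis versions of several subunits, and 5 of the 6 members below the filter on low counts are of that kind. COX4I2 had 5 counts over all 60 libraries, COX6A2 1, COX7B2 0 and COX8C 2. COX7A1, the heart and muscle version of subunit 7a, had 239 counts and a Vehicle level of 0.206 ± 0.181 CPM per kilobase, against 71.9 ± 2.12 for its widely expressed partner COX7A2. The sixth, ATP5MGL, a copy of the ATP synthase subunit gene ATP5MG, had 19 counts. The other 98 members (85 nuclear, 13 mitochondrial) entered the tests.

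With Wortmannin, nuclear subunits of every complex fell, and none rose. A gene is said to have risen, fallen or changed where edgeR's quasi-likelihood test over all 17368 tested genes gave a Benjamini-Hochberg adjusted p under 0.05. Of the 98 members, 39 fell and 0 rose, all 39 among the 85 nuclear genes and 0 among the 13 mitochondrial ones. Over all genes tested, 19.4% fell and 18.0% rose (37.4% changed). The median log2 difference from Vehicle was -0.15 for nuclear members, -0.06 for mitochondrial members and 0.01 for all genes, and 79 of the 85 nuclear values were below 0. In 57 nuclear members the 3 Wortmannin libraries lay wholly below the 3 Vehicle libraries, and in 0 wholly above; 25.6% of all genes tested lay wholly below and 25.4% wholly above. At an unadjusted p under 0.05 the count was 47, and DESeq2 called 41 falls and 0 rises. The share of all genes under either measure is not given here.

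**Figure D2:**
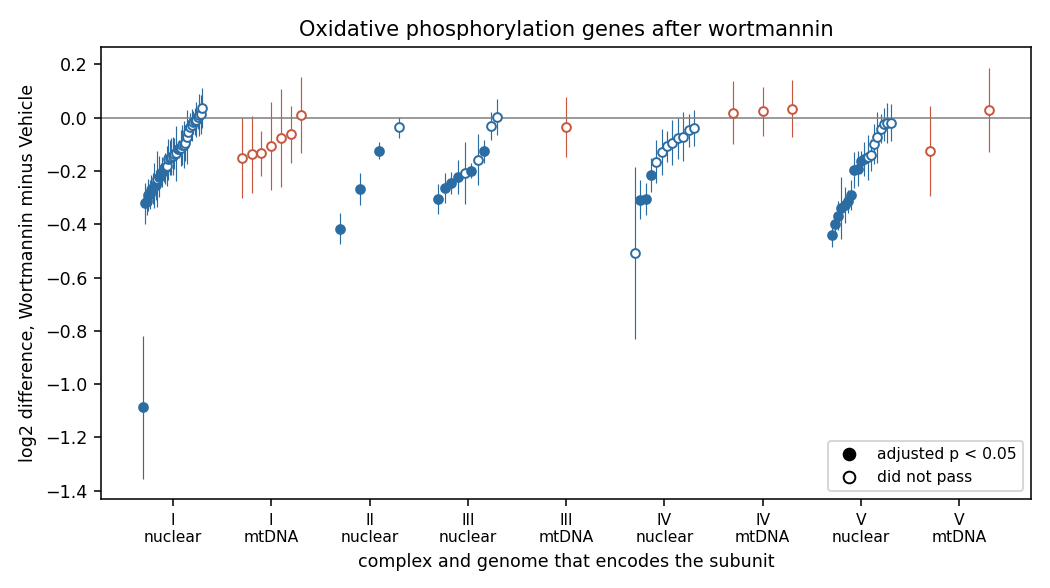
Log2 difference between Wortmannin and Vehicle (vertical axis) for tested members arranged by complex, in blue for nuclear and red for mitochondrial genes. Filled points passed an adjusted p of 0.05, open points did not, and bars are ± 1 standard error; 39 nuclear points are filled, all below 0, and no red point is filled.

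Complex V held 2 of the 4 largest falls. ATP5F1B (chr12:56638175-56646068, GENCODE 29 on GRCh38) had 933, 953 and 962 CPM in the Vehicle libraries and 729, 704 and 727 CPM with Wortmannin. The groups did not overlap, and the gene fell by 0.40 ± 0.039 on the log2 scale (± SE throughout, adjusted p = 8.46e-13). ATP5MC1 (chr17:48892765-48895871) is 1 of several nuclear genes for the same subunit c, which forms the rotor ring. It went from 116, 118 and 117 CPM to 86.4, 86.7 and 85.9 CPM, without overlap (-0.44 ± 0.046, adjusted p = 6.6e-12). Its partner ATP5MC3 fell (-0.33), while ATP5MC2, which codes for the same mature protein, overlapped between the groups at 203, 197 and 211 against 196, 206 and 201 CPM (-0.02, adjusted p = 0.865). In all, 11 of 19 nuclear members of complex V fell, with a median of -0.16. They included ATP5F1C, the central shaft subunit (-0.31), ATP5PB of the peripheral stalk (-0.29), ATP5MF of the membrane part (-0.37) and ATP5F1A, the alpha subunit (-0.16). The inhibitor ATP5IF1, which stops the enzyme from running backwards, also fell (-0.19, adjusted p = 0.0161), a call that was lost without Vehicle replicate 2 or Wortmannin replicate 2 or 3 (adjusted p up to 0.129).

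Complex II fell in 3 of its 4 subunits, with a median of -0.20. SDHB (chr1:17018722-17054170), the iron-sulfur subunit whose promoter stretch is printed above, had 57.5, 59.6 and 60.8 CPM in Vehicle and 43.6, 44.0 and 45.7 CPM with Wortmannin. All 3 treated libraries were lower (-0.42 ± 0.058, adjusted p = 3.14e-08). SDHD, a membrane anchor, moved from 47.0, 45.0 and 47.3 CPM to 40.3, 37.4 and 37.9 CPM (-0.27), again without overlap. SDHA, the flavoprotein that oxidises succinate, fell less, from 113, 110.2 and 111 CPM to 105, 99.5 and 102 CPM (-0.12 ± 0.031, adjusted p = 0.00105). SDHC, the other anchor, overlapped between the groups at 111, 111 and 107 against 109, 106 and 106 CPM (-0.04, adjusted p = 0.5).

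In complex III, 6 of 10 nuclear members fell, with a median of -0.20. CYC1 codes for cytochrome c1, which hands electrons to cytochrome c. Its Vehicle libraries were within 1 CPM of each other (146.1, 146.0 and 145.8), and the Wortmannin libraries stood at 122.9, 122.0 and 124.4 CPM (-0.25 ± 0.043, adjusted p = 3.69e-06). UQCR10, a small subunit, went from 54.6, 51.8 and 50.4 CPM to 42.1, 42.5 and 42.1 CPM (-0.31). The Rieske iron-sulfur protein UQCRFS1 (-0.27) and the core protein UQCRC2 (-0.20) fell as well. UQCRC1, the other core protein, fell by 0.13 on the log2 scale (adjusted p = 0.015), but not without Vehicle replicate 3 or without Wortmannin replicate 2 (adjusted p up to 0.0965). UQCRB, which helps to bind ubiquinone, was at -0.03 and did not pass.

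Complex I fell in 16 of 40 nuclear members, with a median of -0.14. NDUFA4L2 (chr12:57234903-57240715), a paralog of NDUFA4 known as a hypoxia-responsive gene, had the largest difference but the lowest counts, at 1.17, 1.75 and 0.953 CPM against 0.623, 0.665 and 0.537 CPM (-1.09 ± 0.27, adjusted p = 0.000829). NDUFA4 itself, which is named for complex I but is now known as a subunit of complex IV, was lower in all 3 Wortmannin libraries without passing (-0.15, adjusted p = 0.0921). NDUFB9 (-0.31), NDUFC1 (-0.32) and NDUFB8 (-0.25) of the membrane arm fell. So did NDUFS6 (-0.29) and NDUFA9 (-0.29), the latter near the joint of the arms. Of the electron path in the matrix arm, NDUFS1 fell by 0.12 (adjusted p = 0.00124), while NDUFV1, the NADH-binding flavoprotein, overlapped between groups at 82.7, 83.0 and 85.3 against 81.6, 80.3 and 86.1 CPM (-0.02, adjusted p = 0.808). NDUFS8, an iron-sulfur subunit, was at -0.01 (adjusted p = 0.862).

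Complex IV had the smallest share of falls among nuclear members, 3 of 12, with a median of -0.12. Its share was the nearest of the complexes to the 19.4% of all genes that fell. COX8A went from 149, 148 and 144 CPM to 121, 114 and 121 CPM (-0.31 ± 0.060, adjusted p = 4.74e-05). COX7B (-0.31) and COX6B1 (-0.22), also small nuclear subunits, were the others that fell, each with all 3 treated libraries below Vehicle. COX4I1, a regulatory subunit, was at 178, 173 and 175 against 175, 167 and 170.0 CPM and did not pass (-0.04, adjusted p = 0.711). Nor did COX5A (-0.05), COX6A1 (-0.16, adjusted p = 0.0998) or COX7A2L, an assembly factor of supercomplexes (-0.11, adjusted p = 0.15). Shares of falls were not tested between complexes or against the share of all genes.

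The mitochondrial members overlapped between Wortmannin and Vehicle with a wide spread. MT-CO1, the catalytic subunit of complex IV, had 20710, 20390 and 21920 CPM in Vehicle and 20810, 23810 and 19460 CPM with Wortmannin (0.02). MT-ND1, a membrane subunit of complex I, had 5886, 5554 and 6538 against 5444, 6165 and 4565 CPM (-0.15, adjusted p = 0.463). Median differences of mitochondrial members were -0.11 in complex I, -0.04 in III (MT-CYB alone), 0.02 in IV and -0.05 in V. The standard error of MT-ND1 was 0.15 and that of ATP5F1B 0.039, so a fall of the size of the nuclear median was not detectable for MT-ND1 at this spread. Without the filter on low counts, 5 of the 13 mitochondrial members passed the test as falls.

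The promoter letters were also counted apart for genes that fell and for tested genes that did not pass. The NRF1 core was in 18.8% of the 32 promoters of genes that fell and 19.4% of the 36 of tested genes that did not pass. The ETS core was in 28.1% and 30.6%, and the YY1 core in 28.1% and 19.4%. These shares were not tested, and genes that did not pass are not a set of unchanged genes. A match is a description of these letters and not of binding.

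Other measures moved with Wortmannin. The 511 short genes deviated by -0.054 to -0.022 in its libraries and by -0.023 to -0.005 in Vehicle, while nuclear members deviated by -0.213 to -0.159 against -0.045 to -0.010. Replication-dependent histones, used as a sign of RNA quality, deviated by 0.072 to 0.153 against 0.002 to 0.081. The summed epithelial markers were at 6025 to 6152 against 6299 to 6645 CPM, and those of blood cells at 16.0 to 19.3 against 11.7 to 12.5 CPM, carried by CD68 with PTPRC at a median of 0. Their part in the result was not tested. In bulk RNA, fewer cells of a type and less RNA per cell cannot be told apart. Leaving out each library in turn gave 34 to 39 falls and 0 rises, and 32 of the 39 were called under every alternative tried.

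Genes that build and feed the chain were described by count, beside the 19.4% of all genes that fell and 18.0% that rose. The lists of electron carriers and regulators are short, and no list was tested against these shares. Of 78 mitochondrial ribosomal proteins, 59 fell and 1 rose, with a median of -0.25. Of 17 genes that copy and express mitochondrial DNA, 12 fell and 0 rose (median -0.15), among them SLIRP, which stabilises mitochondrial messengers with LRPPRC, from a mean of 70.1 to 46.8 CPM (-0.58). LRPPRC (-0.25), the helicase TWNK (-0.30) and the DNA-binding protein SSBP1 (-0.38) fell too. Assembly factors of complex I fell in 7 of 14 and rose in 0 (median -0.18), with ECSIT at -0.36 and NDUFAF4 at -0.33. Those of complexes II to V fell in 13 of 35 and rose in 1 (median -0.10), and the riser was SURF1, an assembly factor of complex IV (0.39). Of 13 enzymes of the citric acid cycle 8 fell and 0 rose (median -0.15), with citrate synthase CS at -0.28. Of 5 electron carriers 2 fell and 0 rose (median -0.20), and these were cytochrome c, CYCS, from 277 to 205 CPM (-0.43), and ETFA (-0.21). Of 8 regulators 3 fell and 1 rose (median -0.13): NRF1 (-0.28), GABPB1 (-0.36) and PPRC1 (-0.24) fell, and PPARGC1A rose by 1.66 from a very low level (0.0846 to 0.287 CPM). The mitochondrial ribosomal RNA MT-RNR1 fell from 1678 to 1235 CPM (-0.44), and MT-RNR2 was at -0.18 (adjusted p = 0.0698).

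Polygalae Radix at 500 µg/mL changed members in both directions, with MT-CO1, SDHA and NDUFS8 among those that fell and COX7A2L, NDUFA2 and CYC1 among those that rose. Of 98 members, 5 rose and 9 fell, against 10.4% and 9.48% of all genes tested (19.9% in either direction). The nuclear median was -0.002 and the mitochondrial median -0.15. The falls were near the background in number and the rises below it. Without the 4 libraries that stood apart, 17 rose and 16 fell, and in a fit of only the 6 libraries compared 20 rose and 22 fell. The share of all genes called in these fits is not given here, so the larger counts are not read against it.

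Among the falls, SDHA (chr5:218241-256700) had 113, 110.2 and 111 CPM in Vehicle and 98.1, 102 and 100.0 CPM with Polygalae, without overlap (-0.16 ± 0.032, adjusted p = 0.000154). NDUFS8 (chr11:68030617-68036644) had 84.7, 86.7 and 83.6 against 70.5, 79.2 and 70.8 CPM (-0.21 ± 0.052, adjusted p = 0.00216), with replicate 2 nearer to Vehicle than the others. MT-CO1 (chrM:5904-7445) had 17740, 16970 and 16340 CPM, all below its Vehicle libraries given above (-0.30 ± 0.093, adjusted p = 0.0153). Its call was lost without Vehicle replicate 3 or Polygalae replicate 3, and the other subunits of the same core, MT-CO2 (-0.16, adjusted p = 0.389) and MT-CO3 (-0.28, adjusted p = 0.0599), did not pass. ATP5MF (chr7:99448475-99466331) had 117, 126 and 118 against 105, 109 and 106 CPM (-0.18, adjusted p = 0.0152), a call lost without Vehicle replicate 2 or Polygalae replicate 1. UQCRC2 (-0.11, adjusted p = 0.00474), NDUFB10 (-0.13, adjusted p = 0.0231) and COX6B2, the testis version of subunit 6b, from 0.715 to 0.323 CPM (-1.13, adjusted p = 0.0215), fell as well. NDUFA12 (-0.16, adjusted p = 0.0465) and UQCRC1 (-0.13, adjusted p = 0.0304) lost their calls whichever of the 6 libraries was left out.

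Among the rises, COX7A2L (chr2:42333546-42425088) went from 72.8, 75.5 and 72.8 to 87.7, 88.5 and 84.0 CPM (0.24 ± 0.059, adjusted p = 0.00226). NDUFA2 (chr5:140638740-140647785), a small accessory subunit of complex I, went from 22.1, 21.8 and 23.1 to 26.5, 27.3 and 27.4 CPM (0.28 ± 0.076, adjusted p = 0.00521). CYC1 stood at 161, 160 and 170.4 CPM against its narrow Vehicle range (0.16 ± 0.043, adjusted p = 0.00292). In each of these genes the groups did not overlap. The readthrough gene ATP5MF-PTCD1 (chr7:99419749-99466197) rose from 10.5, 9.64 and 9.57 to 13.9, 13.5 and 13.0 CPM (0.45 ± 0.096, adjusted p = 0.000285). It overlaps ATP5MF, which fell, and the estimated counts divide shared reads between them, so the values of both are uncertain. SDHB rose by 0.16 (63.8, 67.3 and 67.7 CPM, adjusted p = 0.0375), and this call was lost in 4 of the 6 fits that left out a library: without Vehicle replicate 1 or 2, or Polygalae replicate 2 or 3. SDHA and SDHB, which form the matrix part of complex II together, stood on opposite sides of Vehicle.

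The genes around the chain are read against the 10.4% of all genes that rose and 9.48% that fell. Assembly factors of complexes II to V rose in 6 of 35 and fell in 0 (median 0.06), with COX14 at 0.41, COA6 at 0.37 and SDHAF2 at 0.34. Those of complex I rose in 2 of 14 and fell in 0 (TMEM126B at 0.45 and NDUFAF8 at 0.28). Mitochondrial ribosomal proteins rose in 11 of 78 and fell in 1 (median 0.02), so their rises were near the background, as were those of complex I assembly. Of the regulators 3 rose and 1 fell. PPARGC1A (2.13, from the very low Vehicle level given above), ESRRA (0.38) and PPARGC1B (0.32) rose, and GABPB1 fell (-0.13). In the citric acid cycle MDH2 (-0.17) and CS (-0.12) fell. In these libraries the epithelial markers summed to 5108 to 5385 CPM (Vehicle 6299 to 6645) and the fibroblast markers to 22.0 to 29.03 CPM (33.3 to 33.9). The blood markers, carried by CD68, summed to 21.7 to 23.9 CPM (11.7 to 12.5). Histones deviated by -0.198 to -0.026 (Vehicle 0.002 to 0.081). The part of these measures in the result was not tested.

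Dose gave a comparison inside the Polygalae libraries, with no Vehicle library. The slope was fitted to its 9 libraries as the log2 change per 5-fold step of dose. Of 97 members tested 4 fell and 0 rose, against 2.44% and 3.23% of all genes (5.67% in either direction). They were SDHA, UQCRC1, ATP5F1A and NDUFS8, subunits of complexes II, III, V and I. UQCRC1 (chr3:48599002-48610976) stood at 133, 119 and 118 CPM at 20 µg/mL and at 102.1, 102.0 and 102.3 CPM at 500 µg/mL (-0.14 ± 0.027 per step, adjusted p = 0.0086). ATP5F1A (chr18:46080248-46104334) went from 392, 349 and 351 to 301, 311 and 313 CPM (-0.12 ± 0.026, adjusted p = 0.013). For SDHA the libraries at 20 µg/mL had 114, 118 and 113 CPM and those at 500 µg/mL 98.1, 102 and 100.0 CPM (-0.10 ± 0.023, adjusted p = 0.0173). For NDUFS8 they had 101, 87.4 and 82.1 and then 70.5, 79.2 and 70.8 CPM (-0.15 ± 0.035, adjusted p = 0.0224). In all 4 genes the highest dose lay wholly below the lowest dose. Leaving out each library in turn gave 1 to 5 calls: 1 without replicate 1 at 500 µg/mL and 2 without replicate 3 at that dose. UQCRC1 was called in each of these fits. A fit of the same slope with all 60 libraries called 28 members, 26 of them falls. Its share of all genes is not given here, and it keeps replicate 1 at 20 µg/mL, the library that stood apart. Without that replicate, the fit to the extract's own libraries gave 1 rise and 4 falls.

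**Figure D3:**
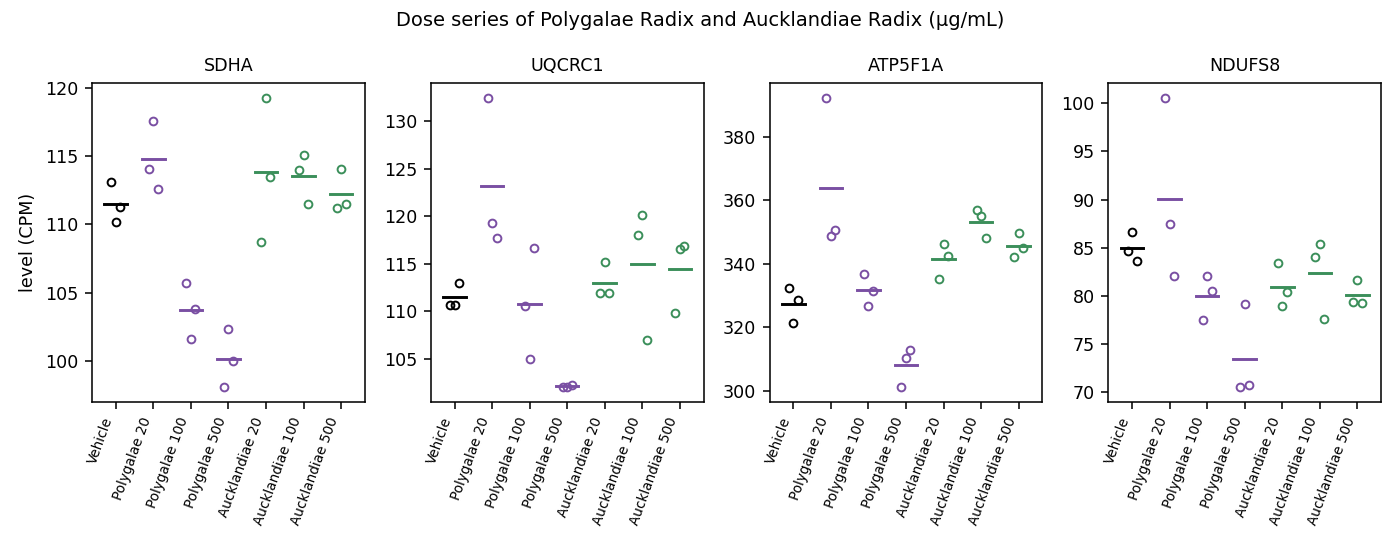
CPM (vertical axis) of SDHA, UQCRC1, ATP5F1A and NDUFS8 in each library of Vehicle and of the 20, 100 and 500 µg/mL groups of Polygalae and Aucklandiae. Points are libraries, short lines are group means and the axes do not start at 0; with Polygalae the 500 µg/mL libraries lie below the 20 µg/mL libraries in each panel, as with UQCRC1 at 102.0 to 102.3 CPM.

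Aucklandiae Radix shared its library set with Polygalae, so the pair could be compared without Vehicle. At 500 µg/mL, 1 member was higher and 5 were lower with Polygalae, against 8.20% and 7.03% of all genes (15.2% in either direction). ATP5F1A had 301, 311 and 313 CPM with Polygalae and 342, 350 and 345 CPM with Aucklandiae (-0.17, adjusted p = 0.000668). SDHA had 111, 114 and 112 CPM with Aucklandiae, above all 3 Polygalae libraries (-0.16, adjusted p = 7.18e-05). UQCRC1 (-0.16, adjusted p = 0.0042), UQCRC2 (-0.12, adjusted p = 0.00199) and NDUFV1 (-0.12, adjusted p = 0.0411) were the other lower members. COX7A2L was the higher one, at 70.6, 75.3 and 74.0 CPM with Aucklandiae (0.24). The count was 5 to 7 when 1 library was left out, and 10 without the 4 libraries that stood apart. The share of all genes in these fits is not given here.

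With Aucklandiae at 500 µg/mL 3 members rose and 2 fell against Vehicle (2.24% and 2.70% of all genes, 4.94% in either direction). NDUFV1 (chr11:67605653-67612554) went from 82.7, 83.0 and 85.3 to 99.4, 101 and 96.1 CPM, without overlap (0.24 ± 0.043, adjusted p = 0.000157). CYC1 stood at 168, 171 and 166 CPM, again above all Vehicle libraries (0.21, adjusted p = 0.000912). ATP5MF-PTCD1 rose (0.30, adjusted p = 0.0477), and NDUFA6 (-0.21, adjusted p = 0.0235) and ATP5MF (-0.19, adjusted p = 0.0315) fell, but NDUFV1 and CYC1 alone were called whichever library was left out. Without the 4 libraries that stood apart, 7 rose and 6 fell. The share of all genes called in that fit is not given here, so these counts are not read against it. In these libraries the epithelial markers summed to 5561 to 5763 CPM (Vehicle 6299 to 6645). The blood markers, carried by CD68, summed to 7.32 to 9.52 CPM (Vehicle 11.7 to 12.5). Neither sum overlapped with Vehicle, and the part of these markers in the result was not tested. Along the Aucklandiae doses 1 of the members rose and 0 fell (1.10% of all genes changed). It was COX7B, from 78.6, 77.2 and 83.1 CPM at 20 µg/mL to 88.7, 85.9 and 94.7 CPM at 500 µg/mL (0.09 ± 0.020 per step, adjusted p = 0.0214). This count ran from 0 to 2 over the fits that left out a library, and was 0 in the fit of all 60 libraries.

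The other extracts at 500 µg/mL changed few members or none by edgeR's test. With Zizyphi Semen, NDUFV1 rose to 93.6, 92.6 and 94.9 CPM (0.16, adjusted p = 0.0286), where 0.898% of all genes rose and 0.915% fell (1.81% changed). It lost the call whichever library was left out. Without the 4 libraries that stood apart 2 rose and 3 fell, and the share of all genes in that fit is not given here. Longan Arillus called 0 members (0.104% of all genes, 0.0864% as falls), with 9 at an unadjusted p under 0.05 and 0 by DESeq2. Schisandrae Fructus called 0 (0.478%, of which 0.259% rises and 0.219% falls), with 3 at an unadjusted p under 0.05 and 0 by DESeq2. Liriopis called 0 (0.00576%), with 14 at an unadjusted p under 0.05 and 0 by DESeq2. Within library sets, 0 members differed between Zizyphi and Longan (0.213%; 3 at an unadjusted p under 0.05, 0 by DESeq2) or between Schisandrae and Liriopis (0.322%; 17 and 0). The dose slopes of Zizyphi (0.359%), Longan (0.0186%), Schisandrae (0.0553%) and Liriopis (0.0314%) called 0 members, with 9, 8, 9 and 8 at an unadjusted p under 0.05 and 0 by DESeq2 in each. For the counts at an unadjusted p, the share of all genes is not given here.

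**Figure D4:**
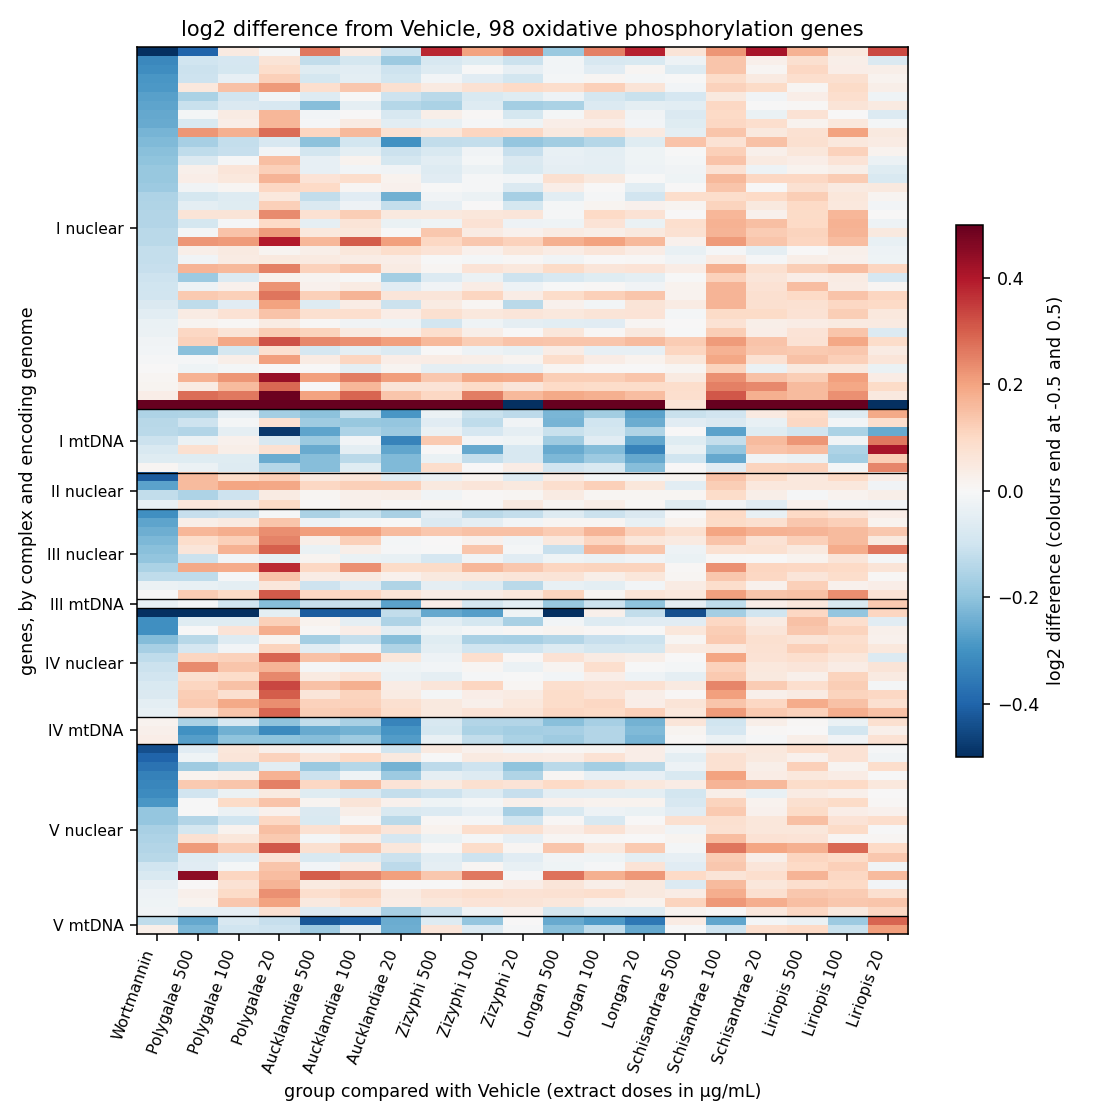
Log2 difference from Vehicle (colour, ending at ± 0.5) of the 98 tested members (rows, by complex) in the 19 treated groups (columns). The Wortmannin column is mostly below 0, with 79 of 85 nuclear values below, and the column of Polygalae at 20 µg/mL holds the most rises, 32.

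At 100 and 20 µg/mL, 50 calls were made over the 12 groups, and 34 of them came from Polygalae at 20 µg/mL. Polygalae at 20 µg/mL had 32 rises and 2 falls, where 6.60% of all genes rose and 5.53% fell (12.1% in all), and it holds the library that stood farthest apart. Without that library, replicate 1, 4 members rose and 2 fell, and the genes called in all went from 2107 to 655. Without replicate 2, 44 members rose and 1 fell (2471 genes in all), and without replicate 3, 53 rose and 2 fell (3377 genes in all), so the count over all genes moved with that of the members. In a fit of only the 6 libraries compared, 3 genes passed in all and 0 members, with 27 members at an unadjusted p under 0.05. Without the 4 libraries that stood apart, 7 members rose and 3 fell (926 genes in all), and Polygalae at 20 µg/mL then gave 10 of 85 calls over the 12 groups. The falls were MT-ND4L (-0.48), at 1014, 1092 and 1395 CPM against 1629, 1658 and 1602 CPM in Vehicle, and MT-CO1 (-0.32). Polygalae at 100 µg/mL had 5 rises and 1 fall, where 7.51% of all genes rose and 5.27% fell (12.8% in all). NDUFV1 (0.19), NDUFA2 (0.26), SDHD (0.20), CYC1 (0.18) and COX5A (0.19), a subunit of complex IV, rose, and SDHA fell to 106, 102 and 104 CPM (-0.10). With only the 6 libraries compared, 20 members rose and 4 fell (2984 genes in all, 2221 in the main fit). Without the libraries that stood apart 17 rose and 4 fell (2945 genes in all). Aucklandiae at 100 µg/mL had 3 rises (NDUFV1, NDUFA2 and CYC1) and 0 falls, where 1.08% of all genes rose and 0.967% fell (2.04% in all). With only the 6 libraries 20 rose and 7 fell (1016 genes in all, 355 in the main fit). Without the libraries that stood apart 14 rose and 0 fell (948 genes in all). At 20 µg/mL it had 2 rises, NDUFV1 and CYC1, and 2 falls, NDUFA3 (-0.30) and ATP5MF (-0.24), where 1.38% of all genes rose and 1.61% fell (2.99% in all). The falls grew to 24 without the filter on low counts and with only the 6 libraries (5 and 4 rises), and to 12 without the libraries that stood apart (5 rises). Genes called in all went from 520 to 845, 1169 and 1209 in these fits. Schisandrae at 100 µg/mL had 3 rises, NDUFV1, NDUFA2 and CYC1, where 0.921% of all genes rose and 0.484% fell (1.40% in all). Without the libraries that stood apart 2 members rose and 0 fell (99 genes in all). Without its replicate 3, which stood apart, 0 genes passed in all, and without Vehicle replicate 1 a total of 14 genes and 0 members did, with 11 and 34 members at an unadjusted p under 0.05. The other 7 groups called 0 members by edgeR in the fit of all 60 libraries. Of all genes, 0.599% changed with Zizyphi at 100 µg/mL (0.328% as falls) and 0.363% at 20 µg/mL, 0.132% with Longan at 100 µg/mL (0.0864% as falls) and 0.0173% at 20 µg/mL, 0.196% with Schisandrae at 20 µg/mL, and 0.00576% and 0.0864% with Liriopis at 100 and 20 µg/mL. Members at an unadjusted p under 0.05 numbered 8, 16, 5, 10, 13, 25 and 7 in these groups. With Liriopis at 100 µg/mL the 25 became 7 without replicate 1, a library that stood apart, 21 without replicate 2 and 36 without replicate 3. Counts at an unadjusted p at these doses are given without the share of all genes. DESeq2 called 2 members each with Zizyphi at 20 µg/mL and Liriopis at 100 µg/mL (132 and 26 genes in all). It called 1 each with Longan at 100 µg/mL and Schisandrae at 20 µg/mL (80 and 85 genes in all), and 0 in the other 3 groups. With only the 6 libraries, edgeR called 8 members each with Schisandrae and Longan at 20 µg/mL, 10 and 6 with Zizyphi at 20 and 100 µg/mL, 7 with Longan at 100 µg/mL, and 2 and 1 with Liriopis at 20 and 100 µg/mL. Genes called in all in these fits numbered 288, 542, 329, 485, 553, 91 and 22, in the same order.

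Across the 18 extract groups, 14 members lay above Vehicle every time, all of them nuclear, and 0 lay below every time. Of the 98 members this is 14.3%, and of all genes tested 6.81% lay above and 5.46% below in every extract group. The 14 were NDUFA1, NDUFA2, NDUFA8, NDUFA13, NDUFB2, NDUFV1, CYC1, UQCR11, UQCRQ, COX4I1, COX5A, ATP5F1D, ATP5MC3 and ATP5PO. NDUFV1, CYC1 and NDUFA2 were the members called in 4 or more groups. NDUFV1 ranged from 0.07 to 0.32 (median 0.15) and rose in 7 groups. CYC1 ranged from 0.08 to 0.23 (median 0.16) and rose in 7, and NDUFA2 ranged from 0.05 to 0.49 and rose in 5. All these comparisons share the same 3 Vehicle libraries, so the 18 values are not independent. Of the 98 members, 52 were called in 0 extract groups, 36 in 1 and 10 in 2 or more. ATP5MF fell in 3 groups, with Polygalae at 500 µg/mL and Aucklandiae at 500 and 20 µg/mL.

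**Figure D5:**
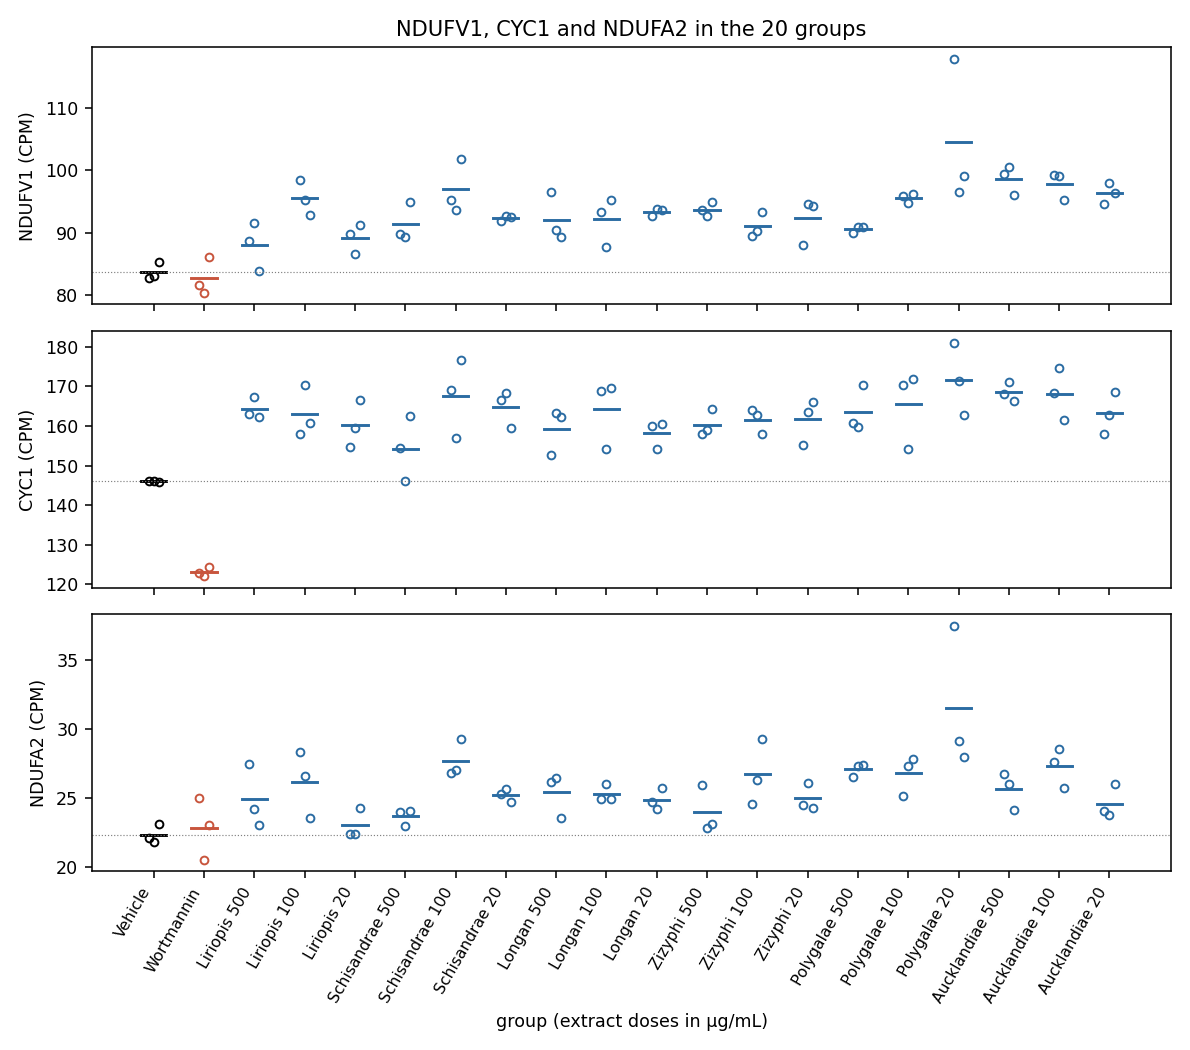
CPM (vertical axis, not starting at 0) of NDUFV1, CYC1 and NDUFA2 in each library of the 20 groups. Points are libraries, short lines are group means and the dotted line is the Vehicle mean; all 18 extract means lie above it in each gene, while Wortmannin lies below it for CYC1, at 122 to 124 CPM.

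The mitochondrial members varied within groups as well as between them, and the spreads were not tested against each other. MT-CO1 ran from 16050 to 24390 CPM over the 60 libraries, with a median of 19100. Its group means were lowest with Polygalae at 20 µg/mL (16840) and highest with Liriopis at 20 µg/mL (21410), and it was above the Vehicle mean in 4 of 18 extract groups. It fell in 2 of them, Polygalae at 500 and 20 µg/mL. The share of mitochondrial messenger RNA was 8.48 ± 0.204% (SD, n = 3) in Vehicle and 8.80 ± 0.749% with Wortmannin. Over the groups it ran from 7.19 ± 0.438% with Aucklandiae at 20 µg/mL to 9.18 ± 0.793% with Liriopis at 20 µg/mL. With Longan at 20 µg/mL the 3 libraries lay wholly below Vehicle in 13 of 13 mitochondrial genes, and with Aucklandiae at 20 µg/mL in 12, though none of these passed the test. Of the 17368 genes tested, 1624 (9.35%) and 2077 lay wholly below Vehicle in these groups. The 13 genes are read from shared transcripts and normalised together, so they are not independent measures.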

How the data were processed

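RNA of 60 A549 libraries was sequenced as paired-end reads from a strand-specific kit, per the labels' protocols. The deposited values are expected counts per gene, which the authors estimated with RSEM 1.3.3 after FastQC 0.11.9, Trim Galore 0.6.5 and STAR 2.7.3a on GRCh38, per the submitters' processing notes. RSEM divides reads that fit several genes, so NDUFC2-KCTD14, ATP5MF-PTCD1 and UQCRHL share reads with their neighbours or copies and are uncertain. For the annotation release and the strand setting: not given in the sources used here. Of the values 10.7% were not whole, and they were rounded.

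A reference gene table named 56558 genes, and GENCODE 29 named another 497. CPM and log2 differences were computed in R 4.3.3 (limma 3.58.1, edgeR 4.0.16), with TMM scaling (factors 0.965 to 1.05), filterByExpr, a prior count of 2 and robust quasi-likelihood fits of 1 mean per group over 60 libraries (40 residual degrees of freedom), adjusted over all genes tested. Slopes used the 9 libraries of an extract (7 degrees of freedom). Scripts were tested on simulated data. Alternatives were DESeq2, other scaling, no filter, only the libraries compared, a replicate block and leaving out libraries. Members and lists were chosen with earlier results of these data known. Members named were the 4 largest rises and falls that passed, with a mean of at least 1 CPM, per main comparison and slope, and a fixed panel; others named beside them were chosen after their values were seen.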

Additional observations from a re-analysis of the deposited data

Results flagged for a closer look

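The dose slopes of Polygalae and Aucklandiae, 2 extracts of the same library set, differed in 15 of 98 members when the difference of slopes was tested in the fit of all 60 libraries with edgeR (1 higher and 14 lower with Polygalae; 9.11% of all genes differed). This test was added after seeing the data. Without the 4 libraries with high short genes it called 6 members, 2 higher and 4 lower (7.86% of all genes).

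The slope of UQCRC1, a core protein of complex III, was lower with Polygalae by a log2 of -0.144 per 5-fold dose (SE 0.030, adjusted p = 0.000621), and by -0.12 without those libraries (adjusted p = 0.00322). For the ATP synthase alpha subunit ATP5F1A the difference was -0.129 (SE 0.026, adjusted p = 0.00038), and -0.10 without them (adjusted p = 0.000573). For the iron-sulfur subunit NDUFS8 it was -0.137 (SE 0.037, adjusted p = 0.00978), and -0.09 without them (adjusted p = 0.0484). For SDHA it was -0.0885 (SE 0.022, adjusted p = 0.0055), and -0.09 without them (adjusted p = 0.00639).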

How the results depend on the processing

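With Wortmannin the count of members called stayed within 1.5 times of 39 under every alternative run (38 to 57), 0 rose in each, 53 fell without the filter on low counts (5 of them mitochondrial), and leaving out a library gave 34 to 39. Other counts moved, mostly upward. Without the filter on low counts they were 32 for Polygalae at 500 µg/mL (14 in the main analysis), 21 for Aucklandiae (5), 13 for Longan (0), 5 for Liriopis (0), 11 for Polygalae against Aucklandiae (6), 9 for Zizyphi against Longan (0), 7 for Schisandrae against Liriopis (0), 208 summed over the 12 lower-dose comparisons (50), 3 for the Aucklandiae slope (1) and 1 each for the Zizyphi, Schisandrae and Liriopis slopes (0). With only the 6 libraries compared they were 42 for Polygalae, 25 for Aucklandiae, 7 for Zizyphi (1), 16 for Longan, 12 for Polygalae against Aucklandiae and 136 over the lower doses. Without the 4 libraries with high short genes, a setting added after seeing the data, they were 33, 13, 5 and 1 for Polygalae, Aucklandiae, Zizyphi and Longan, 1 for Schisandrae (0), 10 for Polygalae against Aucklandiae, 85 over the lower doses and 1 for the Schisandrae slope. Slopes from all 60 libraries called 28 for Polygalae (4) and 0 for Aucklandiae, and DESeq2 called 2 on the Aucklandiae slope. Apart from the lower doses, these counts stand without the share of all genes called under the same alternative. At lower doses the count of all genes moved too. With Aucklandiae at 20 µg/mL it went from 520 to 1169 with only the 6 libraries compared. The cause was not tested.

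Leaving out each library in turn gave 8 to 11 members for Polygalae at 500 µg/mL, 2 to 3 for Aucklandiae, 0 for Zizyphi, Longan, Schisandrae and Liriopis, 5 to 7 for Polygalae against Aucklandiae, 0 for Zizyphi against Longan, 0 to 1 for Schisandrae against Liriopis, and 32 to 82 over the lower doses. For slopes it gave 1 to 5 for Polygalae, 0 to 2 for Aucklandiae, 0 to 1 for Zizyphi and Schisandrae, and 0 for Longan and Liriopis. With the replicate number as a block, Wortmannin gave 39, and no count moved by over 1.5 times except Schisandrae at 20 µg/mL, which went from 0 to 1. The numbers did not pair the samples: of 570 pairs of groups' same-numbered libraries 2 had a correlation over 0.1, the median was 0.001, and 25 of 60 libraries correlated best with their own number. Of 252 values of named genes, 38 were called, 23 of them under every alternative, and 0 changed sign while called. Another scaling moved the median of all genes by at most 0.006.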
